A study of Mus musculus with 8 samples.

Results

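The 9 alpha-defensins described here are Defa3, Defa5, Defa17, Defa20, Defa21, Defa22, Defa23, Defa24 and Defa26, taken by symbol from a table of 17634 genes measured by RNA sequencing in mouse small intestinal crypts. All 8 libraries came from C57BL/6N animals that had been irradiated and were sampled at day 3. Of these, 4 libraries were labelled wild type and 4 were labelled miR-29ab1-/-, a genotype that lacks the miR-29ab1 microRNA locus, and both groups share the irradiation, so no unirradiated level enters any comparison. Neither the radiation dose, nor the age of the animals, nor whether each library is a separate animal is stated in the labels, and the p-values therefore measure the spread between these libraries. The comparison asked how the alpha-defensin transcripts differed between the genotypes after irradiation. No miR-29 gene was analysed here, so the genotype labels were not checked at the deleted locus.

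Alpha-defensins, called cryptdins in the mouse intestine, are short cationic antimicrobial peptides that Paneth cells at the crypt base store in granules and release into the crypt lumen. Each is translated as a precursor with a signal peptide and an acidic propiece, and in mice the matrix metalloproteinase Mmp7 cuts the propiece away to free the active peptide. The genes arose by repeated duplication, and Wnt signalling through TCF factors is known to drive their transcription in Paneth cells. In these bulk libraries fewer cells of a type and less RNA per cell cannot be told apart.

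Because reads from near copies can be shared out between genes, the sequences bear on which values can be read gene by gene. The last 120 coding bases of Defa21, the end of the precursor where the mature peptide lies, are given first, followed by the matching stretch of 6 other members. They were read from GENCODE M21 transcripts (GRCm38), 5′ to 3′, and capitals mark bases that differ from Defa21 or are inserted relative to it.
Defa21: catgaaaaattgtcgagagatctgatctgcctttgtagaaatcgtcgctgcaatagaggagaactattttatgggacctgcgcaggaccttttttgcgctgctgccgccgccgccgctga
Defa22: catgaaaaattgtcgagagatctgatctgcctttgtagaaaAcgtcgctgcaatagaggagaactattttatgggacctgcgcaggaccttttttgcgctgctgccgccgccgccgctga
Defa20: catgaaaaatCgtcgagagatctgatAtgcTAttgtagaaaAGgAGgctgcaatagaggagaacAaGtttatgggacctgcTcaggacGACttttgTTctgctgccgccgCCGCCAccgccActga
Defa26: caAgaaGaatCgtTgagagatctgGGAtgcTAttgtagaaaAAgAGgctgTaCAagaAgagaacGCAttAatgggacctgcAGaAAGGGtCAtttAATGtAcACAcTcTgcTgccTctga
Defa5: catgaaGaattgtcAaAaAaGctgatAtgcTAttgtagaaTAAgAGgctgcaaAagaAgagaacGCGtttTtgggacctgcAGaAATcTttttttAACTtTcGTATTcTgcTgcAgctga
Defa17: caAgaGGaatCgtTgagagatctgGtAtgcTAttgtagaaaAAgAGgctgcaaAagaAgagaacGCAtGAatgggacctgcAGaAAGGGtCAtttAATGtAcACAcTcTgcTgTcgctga
Defa24: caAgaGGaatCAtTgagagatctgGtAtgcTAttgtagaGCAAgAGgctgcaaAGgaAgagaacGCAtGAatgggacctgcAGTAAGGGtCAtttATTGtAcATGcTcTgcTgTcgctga
In this stretch Defa22 differed from Defa21 at 1 base and Defa20 at 23. The count for Defa20 includes the bases of an insertion that makes its stretch 126 bases long. The other 4 differed from Defa21 at 38 bases in Defa5, 41 in Defa17, 42 in Defa26 and 46 in Defa24.

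All 9 members have 2 exons and lie in the alpha-defensin cluster on chromosome 8. Over the whole coding sequence, the identity of member pairs ran from 78.7 to 100 percent, and Defa3 and Defa17 were identical. The table held 28 alpha-defensin genes in all, the 9 members and 19 others, of which 6 carry other symbols (Gm14851, Gm15292, Gm15293, Gm7849, Gm7861 and AY761184). Joining genes with at least 96 percent coding identity to any other gene of a group placed the members in 5 groups. Defa20 grouped with Defa2, Defa32 and Defa33, Defa21 with Defa22, and Defa26 with Gm15292. Defa3, Defa17, Defa23 and Defa24 grouped with Defa30 and Defa31, and Defa5 grouped with Defa34, Defa35, Defa36, Defa37 and Gm15293. The highest identity between genes of different groups was 94.1 percent.

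The share of a transcript that can be told from its relatives differed widely among the members. Of the 100-base stretches of each transcript, 99.7 percent in Defa20, 90.6 percent in Defa17, 89.1 percent in Defa23, 88.1 percent in Defa5 and 86.8 percent in Defa3 also occurred in another alpha-defensin transcript. This share was 40.4 percent in Defa21 and 40.3 percent in Defa22. It was 1.1 percent in Defa26 and 0.0 percent in Defa24, so nearly all reads of that length would belong to a single gene there. Shorter reads would be less separable, since 33.4 percent of 50-base stretches in Defa26 and 28.1 percent in Defa24 were shared. The deposited counts were not whole numbers in any of the 8 libraries for 8 members, and in 6 libraries for Defa26. Values of single genes within a group are thus uncertain, above all for Defa20 and its relatives, and the groups are also given as sums.

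Per transcript length, the members spanned a wide range in wild type. Defa24 had the highest level at 7668 ± 1569 FPKM (fragments scaled by transcript length and library total, SD, n = 4), and Defa17 followed at 6947 ± 843 FPKM. Defa23 stood at 5209 ± 994, Defa21 at 4344 ± 620, Defa22 at 4211 ± 396 and Defa20 at 3875 ± 488 FPKM. Neighbours in this order overlapped in their wild-type ranges from Defa24 down to Defa20. The 3 lowest members were separated from each other and from the rest without overlap, with Defa5 at 2532 ± 381, Defa3 at 1521 ± 228 and Defa26 at 199.7 ± 36.2 FPKM. Defa5 exceeded Defa3, and Defa3 exceeded Defa26, in all 8 libraries. In the knockout the ranges of all neighbours in this order overlapped except those of Defa3 and Defa26.

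Between the genotypes, Defa20, Defa21, Defa22 and Defa26 rose in the miR-29ab1-/- libraries and no member fell. These 4 of 9 members passed edgeR's quasi-likelihood test at an adjusted p below 0.05, a call that 47.3 percent of the 12908 genes tested received in either direction and 24.2 percent received in the higher direction. At an unadjusted p below 0.05, edgeR called 5 members higher and 0 lower, and DESeq2 called 5 higher and 0 lower after adjustment and 7 higher and 0 lower before it. The median log2 fold change of the 9 members was 0.86, beside 0.03 over all genes tested. All 9 members passed the low-count filter.

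Defa26 (NCBI gene 626708), the least abundant member, had the largest fold change of the 9 members. It stood at 54.2, 58.1, 36.3 and 44.8 CPM (counts scaled to a common library total, with TMM factors) in wild-type replicates 1 to 4 and at 112, 244, 59.3 and 106 CPM in knockout replicates 1 to 4. Every knockout library lay above every wild-type library, although knockout replicate 3 exceeded wild-type replicate 2 only narrowly. Defa26 rose 2.70-fold (log2 1.43, SE 0.38, adjusted p = 0.0132 by edgeR's quasi-likelihood test) and was the only member whose groups did not overlap, while 22.7 percent of all genes tested were higher in the knockout without overlap.

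Defa21 (NCBI gene 66298) and Defa22 (NCBI gene 382059) have coding sequences that differ at 2 bases. Defa21 stood at 1420, 1280, 1012 and 996 CPM in wild type and at 2867, 4351, 1338 and 2025 CPM in the knockout. It rose 2.25-fold (log2 1.17, SE 0.33, adjusted p = 0.0181 by edgeR). Knockout replicate 3 fell inside the wild-type range and the other 3 knockout libraries lay above it. Defa22 stood at 1318, 1202, 940 and 1105 CPM in wild type and at 2517, 3504, 1135 and 1935 CPM in the knockout. It rose 1.99-fold (log2 0.99, SE 0.31, adjusted p = 0.0255 by edgeR), with knockout replicate 3 again inside the wild-type range.

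Defa20 (NCBI gene 68009) shares nearly all of its transcript with relatives, and its own value depends on how reads were divided. It stood at 1250, 896, 940 and 1200 CPM in wild type and at 2547, 3892, 1114 and 1915 CPM in the knockout. It rose 2.21-fold (log2 1.14, SE 0.34, adjusted p = 0.0215 by edgeR). The 4 genes of its group summed to 3733 ± 387 CPM in wild type and 8686 ± 3810 in the knockout, a ratio of 2.33, so the sum moved much as the single gene did.

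Defa5 (NCBI gene 13239) did not pass the test, with a log2 fold change of 0.86 (SE 0.34, adjusted p = 0.0622 by edgeR). It stood at 759, 781, 505 and 722 CPM in wild type and at 1244, 2066, 593 and 1102 CPM in the knockout. With the replicate number as a block, Defa5 passed, with a log2 fold change of 0.73 and an adjusted p of 0.0174 in edgeR, and the count of members called was then 5, while the share of all genes called was 54.2 percent. Knockout replicate 3 was again the only knockout library within the wild-type range.

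The 4 members that form a group by sequence, Defa3, Defa17, Defa23 and Defa24, did not pass the test. Defa24 (NCBI gene 503491), whose transcript shares the least with relatives among the members, stood at 2035, 2413, 1439 and 2428 CPM in wild type. It stood at 2908, 6370, 1679 and 2752 CPM in the knockout, a log2 fold change of 0.72 (SE 0.38, adjusted p = 0.146 by edgeR). Defa17 (NCBI gene 23855) stood at 1943, 1982, 1411 and 1994 CPM and at 2608, 5555, 1612 and 2510 CPM in the same order. In both genes 3 knockout libraries lay above all wild-type libraries and knockout replicate 3 lay within the wild-type range. Defa23 (NCBI gene 497114) stood at 1457, 1493, 978 and 1709 CPM in wild type and at 1863, 4122, 1023 and 2156 CPM in the knockout. Defa3 (NCBI gene 13237) stood at 446, 402, 293 and 462 CPM in wild type and at 560, 928, 334 and 590 CPM in the knockout. The log2 fold changes were 0.75 (SE 0.35, adjusted p = 0.105) for Defa17, 0.70 (SE 0.38, adjusted p = 0.156) for Defa23 and 0.59 (SE 0.29, adjusted p = 0.121) for Defa3. The knockout spread was wide in all 4 because replicate 2 was the highest library and replicate 3 the lowest knockout library.

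**Figure D1:**
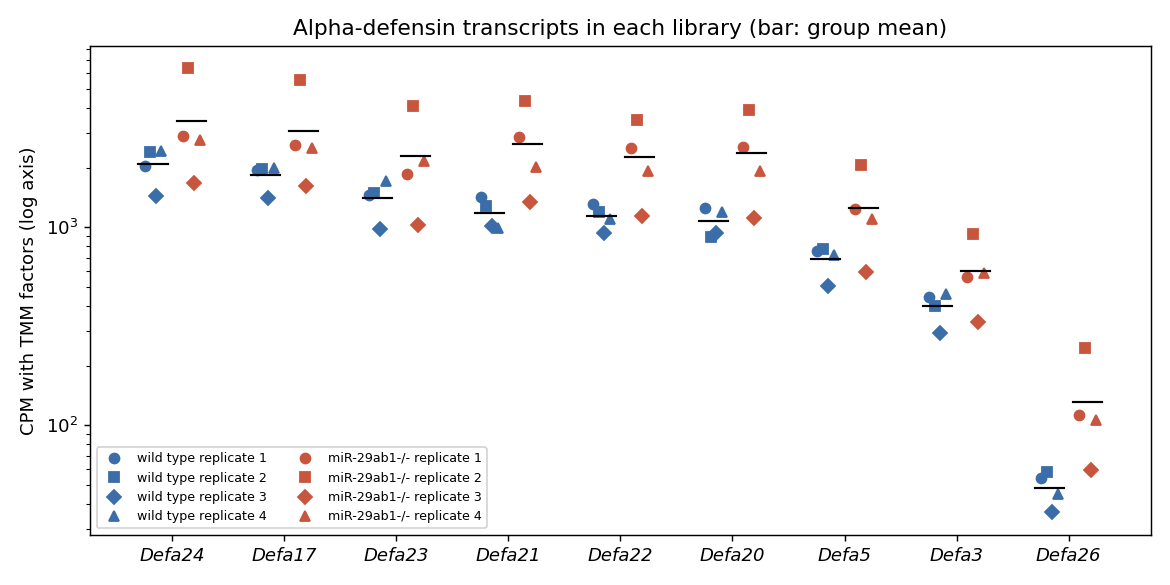
Level of each of the 9 alpha-defensins in CPM on a log axis, with each point 1 library of wild type (blue) or miR-29ab1-/- (red) and bars at the group means. Knockout replicate 2 was the highest library for every member, knockout replicate 3 was the lowest knockout library for every member, and the groups were separate for Defa26.

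How many members passed the test rested on single libraries, and the share of all genes called moved too. Without knockout replicate 3 all 9 passed (48.8 percent of all genes tested), and without knockout replicate 2 only Defa21 and Defa26 did, with log2 fold changes over the 9 members of 0.19 to 0.89 (45.2 percent of all genes). Without knockout replicate 1 (38.2 percent of all genes) or without wild-type replicate 3 (42.7 percent) only Defa26 passed. Defa21 and Defa26 passed without wild-type replicate 2 (40.7 percent), and Defa20 and Defa26 passed without wild-type replicate 4 (38.2 percent). Knockout replicate 3 also had the highest summed leukocyte markers of the 8 libraries, 1646 CPM against 65.5 to 770 in the others. Its summed fibroblast markers, 253 CPM, were close to those of knockout replicate 4 (244 CPM) and wild-type replicate 3 (221 CPM). The part of these cells in the result was not tested. In replicate 4 of each genotype Y-linked genes had 3 and 1 counts, against 1285 to 2061 in the other libraries, and with replicates 1 to 3 alone only Defa26 passed (36.4 percent of all genes).

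**Figure D2:**
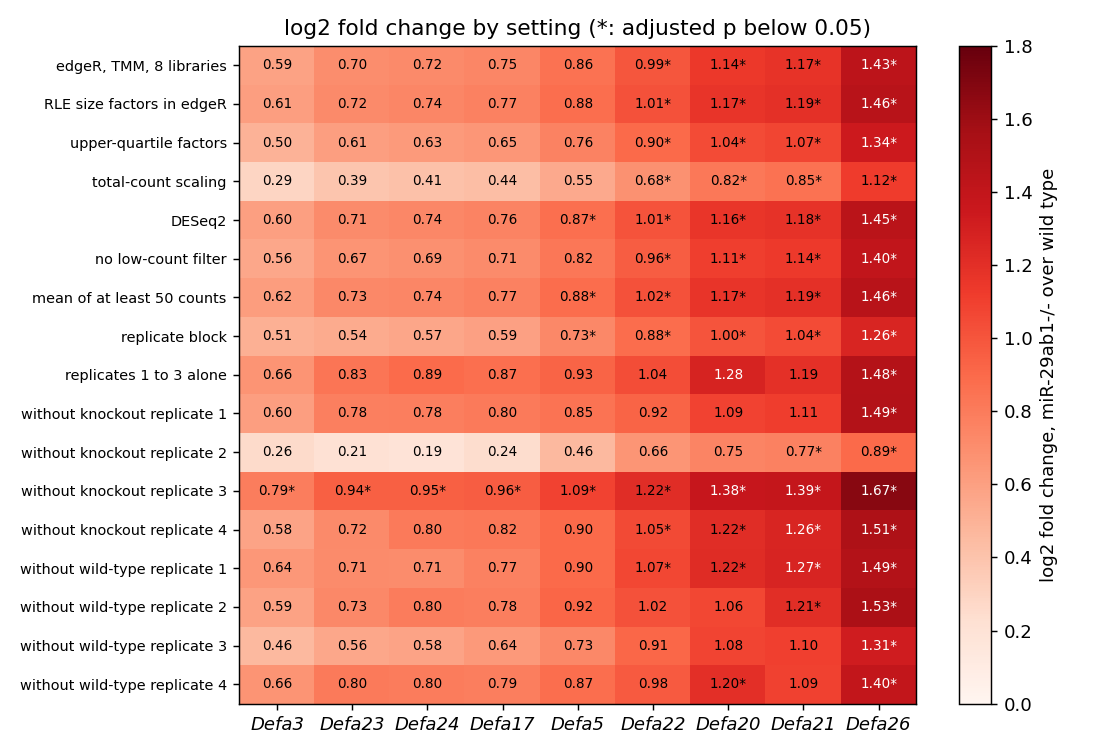
Log2 fold change (miR-29ab1-/- over wild type) of each member (columns) under each analysis setting (lines), with deeper red for a higher value and an asterisk where the adjusted p was below 0.05. Defa26 passed in the main analysis and in all 16 alternatives, and all 9 members passed without knockout replicate 3.

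Summed, the 9 members took 10683, 10507, 7555 and 10661 CPM in wild-type replicates 1 to 4 (mean 9851 ± 1533, SD, n = 4). The sum was 17226, 31033, 8887 and 15091 CPM in the knockout (mean 18059 ± 9344, SD, n = 4). The ratio of the means was 1.83, the groups overlapped, and the highest knockout library was 3.49 times the lowest, against 1.41 times in wild type. The log2 ratio of the sums, 0.87, was 0.43 without knockout replicate 2. In the deposited FPKM values, which carry no TMM scaling, the same ratio was 1.47. All 28 alpha-defensin genes together took 2.09 ± 0.21 percent of all counts in wild type and 3.15 ± 1.31 percent in the knockout (SD, n = 4). The members held 51.4 percent of the family's summed CPM in wild type and 50.3 percent in the knockout.

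Set against other Paneth cell transcripts, the ratio of the members' sum to lysozyme overlapped between the genotypes, and the ratio to Mmp7 did not. The sum was 2.35, 1.87, 1.79 and 2.13 times the level of Lyz1, the Paneth cell lysozyme, in wild-type replicates 1 to 4 and 2.17, 2.13, 1.93 and 2.12 times in the knockout. The means were 2.03 ± 0.26 and 2.09 ± 0.11 (SD, n = 4), and the groups overlapped. Lyz1 itself had a log2 fold change of 0.82 (adjusted p = 0.0612 by edgeR). Reads can be shared between it and its near copy Lyz2, which stood at only 2.30 to 18.9 CPM, against 4233 to 14564 CPM for Lyz1. Mmp7, the protease that activates the precursors, stood at 722, 913, 579 and 746 CPM in wild type and 535, 755, 459 and 485 CPM in the knockout, a log2 fold change of -0.40 (adjusted p = 0.129 by edgeR). The members' sum was 14.8, 11.5, 13.1 and 14.3 times the Mmp7 level in wild type and 32.2, 41.1, 19.3 and 31.1 times in the knockout, without overlap. This ratio was chosen after the values were seen and has no test. Over the summed other Paneth cell genes the members stood at 0.72 ± 0.11 in wild type and 0.80 ± 0.23 in the knockout (SD, n = 4), with overlapping groups. The summed genes are not all specific to Paneth cells. They include Guca2a and Guca2b, also made by villus and goblet cells, and Agr2, also a goblet cell marker here. A larger part of the sum came from Reg3g and Reg3b, with wild-type means of 2101 and 1919 CPM. Both were lowest in knockout replicate 2, at 481 and 922 CPM, the library where the ratio was highest, at 1.12.

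**Figure D3:**
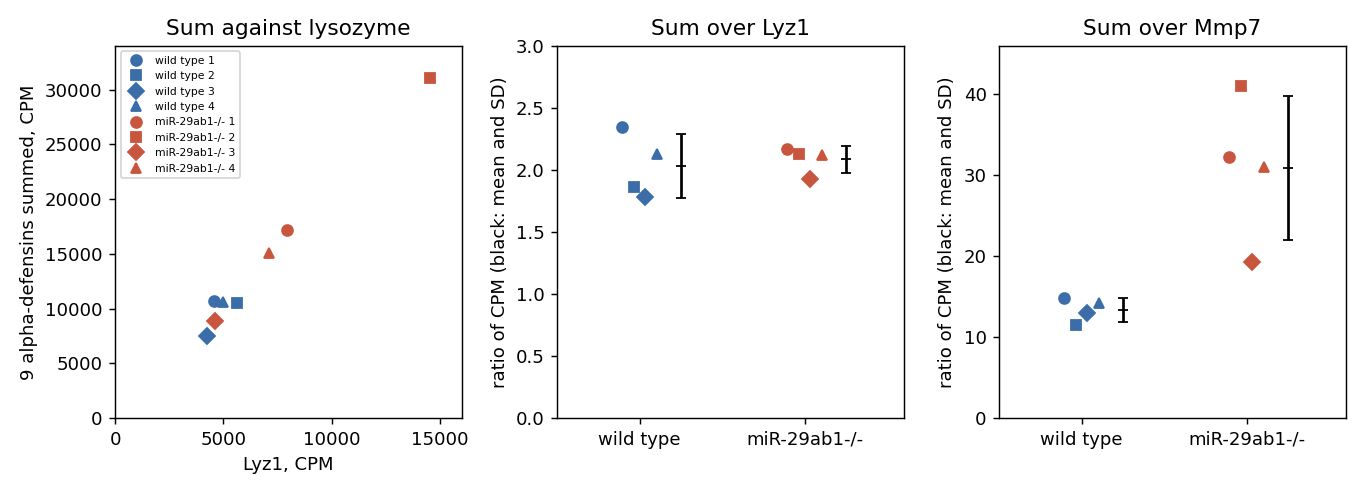
Summed CPM of the 9 alpha-defensins against the CPM of Lyz1 (left), and the sum over Lyz1 (middle) and over Mmp7 (right), with each point 1 library and black bars giving the mean and SD of 4 libraries. The ratio to Lyz1 overlapped between genotypes, while the ratio to Mmp7 was 11.5 to 14.8 in wild type and 19.3 to 41.1 in the knockout.

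Among the 19 other alpha-defensin genes 18 were tested, and 8 of these rose in edgeR, beside 24.2 percent of all genes tested. The median log2 fold change of the 18 was 0.86. Defa25 was at or near 0 in all libraries and was not tested. The 3 relatives of Defa20 all rose: Defa32 by a log2 fold change of 1.56, Defa33 by 1.17 and Defa2 by 1.11. Of their 100-base stretches, 99.7 to 100 percent also occurred in another alpha-defensin transcript, as did 100 percent in Gm7849. Their separate values thus depend on how reads were divided. Gm15292, the relative of Defa26, rose by 1.71. Defa35 rose by 1.63, Defa28 by 1.48, Gm7849 by 1.19 and AY761184 by 1.10. Among the genes that did not pass, the log2 fold change ran from -0.05 in Gm15293 to 0.99 in Gm7861. The genotypes did not overlap for 3 of the 18, Defa32, Defa33 and Gm15292, beside 22.7 percent of all genes tested.

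Arranged by sequence, near copies had similar folds in some groups and a wide spread in others. The 4 genes of the Defa20 group rose by log2 1.11 to 1.56, and both genes of the Defa21 group by 0.99 to 1.17. Both genes of the Defa26 group rose by 1.43 to 1.71. The 6 genes of the Defa23 group had log2 fold changes of 0.19 to 0.75, and edgeR called 0 of them, also without adjustment, while DESeq2 called 0 after adjustment and 2 before it. In the Defa5 group 1 of 6 rose, and DESeq2 called 2. Its log2 fold changes ran from -0.05 in Gm15293 to 1.63 in Defa35, although these genes are 97.9 percent identical. Both were scarce, with wild-type means of 1.61 CPM for Gm15293 and 8.0 CPM for Defa35. The rest of this group, at wild-type means of 204 to 880 CPM, had log2 fold changes of 0.54 to 0.86, and none of these passed in edgeR. In the Gm14851 group, which holds no member, 2 of 5 rose, with log2 fold changes of 0.46 to 1.19. These groups were formed after the values were seen and have no test, and near copies can share reads. Defa30 and Defa22 are neighbours in the order of the 28 genes on the chromosome, and had log2 fold changes of 0.19 and 0.99.

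**Figure D4:**
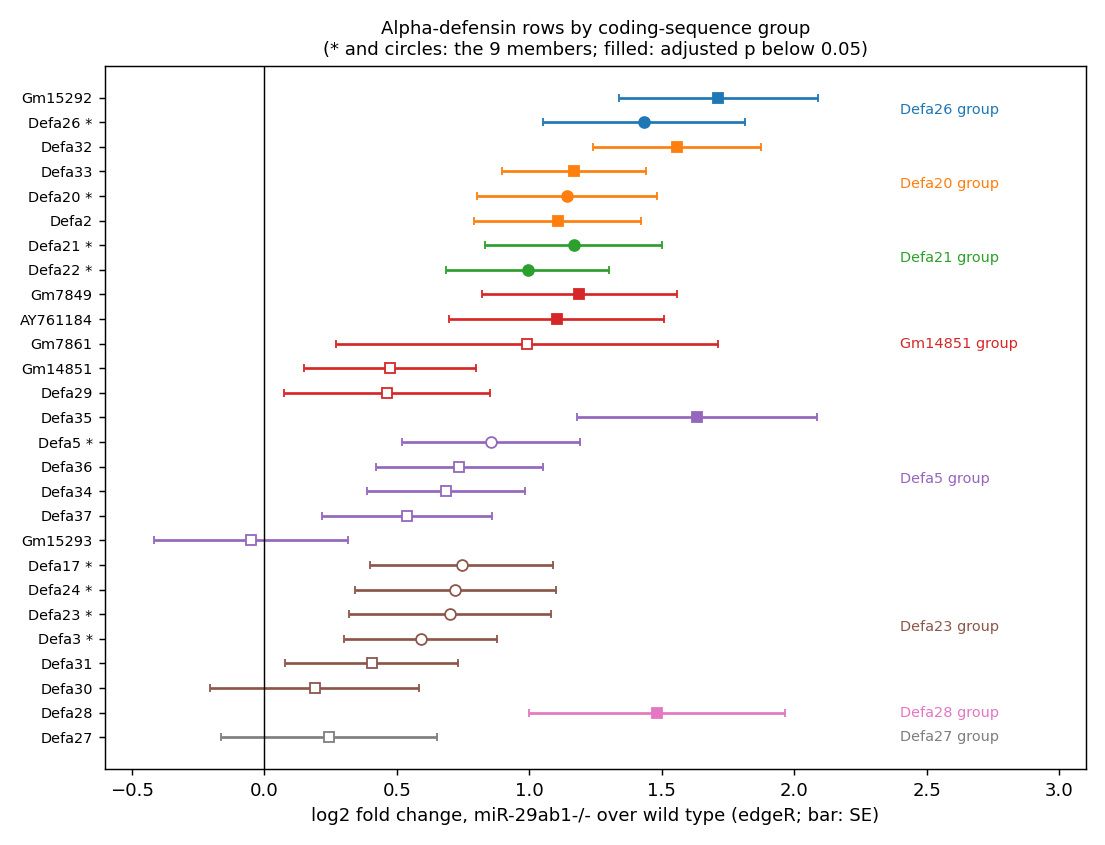
Log2 fold change (knockout over wild type) with its SE for the 27 tested alpha-defensin genes, arranged by coding sequence group, with circles for the 9 members and filled marks for an adjusted p below 0.05. The Defa20 group lay at 1.11 to 1.56 and the Defa23 group at 0.19 to 0.75.

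Summed over its genes, the Defa21 group stood at 2318 ± 358 CPM in wild type against 4918 ± 2290 in the knockout (SD, n = 4), a ratio of 2.12. The Defa26 group summed to 53.7 ± 10.47 and 148 ± 89 CPM, a ratio of 2.76 and the only one of the 5 group sums without overlap. The ratio was smaller in the Defa5 group, at 1.62 (2112 ± 359 and 3430 ± 1538 CPM), and in the Defa23 group, at 1.56 (6852 ± 1465 and 10699 ± 5945 CPM). These differences between groups were not tested. As a share of the family's summed FPKM, the Defa23 group held 37.2 ± 3.7 percent in wild type and 31.0 ± 2.6 percent in the knockout (SD, n = 4). The Defa20 group held 19.7 ± 2.6 and 24.8 ± 3.1 percent, the Defa21 group 12.4 ± 1.5 and 14.2 ± 1.3 percent, and the Defa5 group 11.8 ± 0.47 and 10.4 ± 0.80 percent. The genotypes overlapped in all 4. The Defa26 group was small, at 0.34 ± 0.04 percent in wild type and 0.49 ± 0.05 percent in the knockout, without overlap. The ratio of each pair of members was compared between genotypes over the 8 libraries by a two-sided exact permutation test, over 36 pairs. The ratio differed without overlap in 9 pairs, each at p = 0.029, the smallest p that 4 against 4 allows in this exact test. None passed after Benjamini-Hochberg adjustment, with a lowest adjusted p of 0.12 in the exact permutation tests. With this floor, most of the 36 pairs would need the smallest p before any could pass. The pairs also share genes and reads, so the adjusted values cannot decide whether ratios differed. Defa26 was in 5 of these pairs, against Defa3, Defa5, Defa17, Defa23 and Defa24, where the log2 ratio of the partner to Defa26 differed by -0.75 to -0.53 (knockout minus wild type). The other 4 pairs set Defa20 against Defa3 and Defa17, Defa22 against Defa3, and Defa21 against Defa17.

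**Figure D5:**
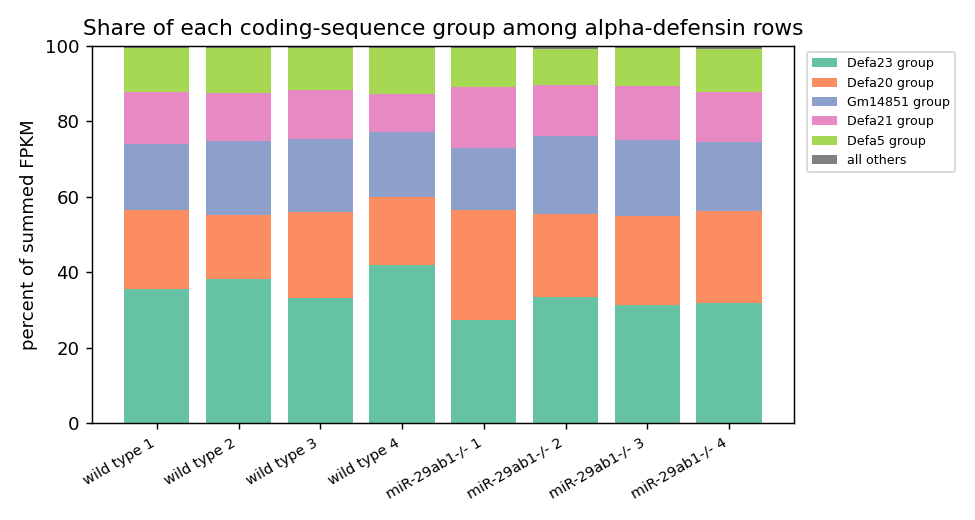
Percent of the family's summed FPKM held by each coding sequence group (colours) in each of the 8 libraries. The Defa23 group lay between 33.3 and 41.9 percent in wild type and between 27.3 and 33.5 percent in the knockout.

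The promoters of 3 of the 4 members that rose could be compared with that of Defa23, which did not pass the test. RefSeq promoters (GRCm38.p6) were matched for these 4 of 9 members and for 16 of the 28 alpha-defensin genes. The 150 bases before each start are given for these 4 genes, on the + strand, at chr8:21025395-21025544 for Defa21, chr8:21162127-21162276 for Defa22, chr8:21509108-21509257 for Defa20 and chr8:21054890-21055039 for Defa23. The build behind the deposited table is not stated in the labels. Capitals mark the TCF-type motif CTTTGAT, read on this strand as ATCAAAG, and the TATA motif TATAAA.
Defa21: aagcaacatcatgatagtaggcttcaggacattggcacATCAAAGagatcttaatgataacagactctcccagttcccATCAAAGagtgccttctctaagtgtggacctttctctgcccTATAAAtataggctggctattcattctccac
Defa22: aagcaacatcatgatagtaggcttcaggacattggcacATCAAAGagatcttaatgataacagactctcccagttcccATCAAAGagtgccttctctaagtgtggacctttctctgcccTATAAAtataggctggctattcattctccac
Defa20: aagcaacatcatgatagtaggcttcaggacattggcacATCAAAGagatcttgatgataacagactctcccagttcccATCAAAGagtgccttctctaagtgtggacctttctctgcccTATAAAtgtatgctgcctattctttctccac
Defa23: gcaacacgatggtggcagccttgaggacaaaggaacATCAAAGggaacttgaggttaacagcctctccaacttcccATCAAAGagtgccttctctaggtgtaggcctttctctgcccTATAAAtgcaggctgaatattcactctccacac
Over the 300 bases around the start that RefSeq's table gives, Defa21 and Defa22 were identical, Defa20 matched Defa21 at 97.7 percent and Defa23 matched it at 81.6 percent. CTTTGAT, searched on both strands, occurred in 2 copies in all 4 promoters. It occurred in 13 of the 16 alpha-defensin promoters matched, 9 of them with 2 copies, against 3.73 percent of 32851 RefSeq promoters of the same length with any copy and 0.10 percent with at least 2. TATAAA was present in 15 of 16, against 13.6 percent of all promoters, and CAGATG, an E-box motif, in 11 of 16, against 17.2 percent. Defa23 carried the same 2 copies of CTTTGAT as Defa20, Defa21 and Defa22.

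Of 24 other Paneth cell genes tested, 9 rose and 1 fell, with a median log2 fold change of 0.56. Of all 12908 genes tested, 3129 rose (24.2 percent) and 2976 fell. The strongest by p were Guca2b, the uroguanylin hormone, which rose from 148 ± 84 to 1729 ± 849 CPM (log2 3.55, adjusted p = 0.00148), Ephb3, a receptor that positions Paneth cells at the crypt base, which fell by 0.95 on the log2 scale (adjusted p = 0.00282), and Guca2a, guanylin, which rose by 2.10 (adjusted p = 0.00319). Guca2a and Guca2b are also made by villus and goblet cells. Among the genes of this list that did not pass, the log2 fold change ran from -0.40 in Mmp7 to 0.98 in Clps. It was 0.82 in Lyz1, 0.59 in Spink4, 0.58 in Reg3b, 0.54 in Habp2, 0.28 in Ang4 and 0.28 in Itln1. In the rest it was 0.05 in Wnt3, -0.07 in Nupr1, -0.08 in Cd24a, -0.12 in Mptx1, -0.22 in Mptx2 and -0.21 in Reg3g. Of 25 tested genes for maturation, release and regulation of alpha-defensins or Paneth cells, 10 rose and 3 fell, with a median log2 fold change of 0.17. The strongest were Slc30a2, a granule zinc transporter, which rose by 2.86 (adjusted p = 0.00249), Kcnn4, a calcium-activated potassium channel linked to granule release, which fell by 0.82 (adjusted p = 0.00345), and Atoh1, the transcription factor of secretory lineages, which rose by 0.59 (adjusted p = 0.00394). Sox9, a factor that Paneth cells need, had a log2 fold change of -0.32 (adjusted p = 0.213 by edgeR).

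Markers of other crypt and villus cells also differed between the genotypes. Their counts stand beside 24.2 percent of all genes tested that rose and 2976 of 12908 that fell. All 15 enterocyte markers rose, with a median log2 fold change of 3.17, and their sum was 2962 to 14045 CPM in wild type and 33207 to 108642 in the knockout. By smallest p the first were Lct, the lactase (log2 4.78), Mgam (1.76) and Vil1 (1.75). Goblet cell markers rose in 8 of 10 tested (median 1.21), led by Klk1 (0.97), Ramp1 (1.34) and Fcgbp (1.85), and 2 of the 10, Agr2 and Spdef, also stand in the Paneth cell lists. Tuft cell markers rose in 7 of 8 (median 1.62), led by the channel Trpm5 (2.26), Alox5 (1.19) and Sh2d6 (2.14). Enteroendocrine markers rose in 5 of 12 (median 0.67), led by the hormone genes Sst (1.35), Ghrl (1.27) and Gip (1.69). Lgr5+ stem cell markers fell in 8 of 12 (median -0.83), led by Igfbp4 (-1.40), Ascl2 (-1.42) and Lrig1 (-1.04). The alpha-defensin median of 0.86 was thus below that of enterocyte, goblet and tuft cell markers and above that of enteroendocrine markers, a description of these lists. Of 8 general epithelial markers, Cldn7 (0.87) and Epcam (0.74) rose and Krt18 (-0.64) and Cdx1 (-0.44) fell. Of 9 leukocyte markers tested, 0 rose and 0 fell. Summed leukocyte markers stood at 65.5 to 461 CPM in the wild-type libraries and 216 to 1646 CPM in the knockout libraries. Knockout replicates 2 (311 CPM) and 4 (216 CPM) lay within the wild-type range. Of 6 fibroblast markers tested Pdgfrb rose, and of 4 neutrophil markers tested Ly6g fell, at a sum of 22.9 to 45.1 CPM in wild type and 6.80 to 29.0 in the knockout. The part of these cell types in the alpha-defensin values was not tested.

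The genes most like the members' sum over the 8 libraries, of 10916 with a mean of at least 50 counts, were Tmed6 (Pearson r 0.99), Lyz1 (0.98), Aadac (0.97), Pxylp1 (0.96), Tmem219 (0.96) and Habp2 (0.96), with Spearman's rho of 0.83 to 0.93. These correlations describe log2 CPM across libraries that share a common scaling. Tmed6 stood at 9.72, 10.8, 8.66 and 10.3 CPM in wild type and 16.1, 26.1, 10.3 and 14.3 CPM in the knockout, with replicate 2 highest and replicate 3 lowest among the knockouts, as for the members. Within groups, deviations from the group mean gave r 0.98 for Tmed6, 0.97 for Lyz1 and 0.84 for Mmp7, although Mmp7 had r 0.13 over all 8 libraries. The members correlated with each other at r 0.83 to 0.99 over the same libraries, and near copies among them can share reads.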

How the data were processed

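Small intestinal crypt RNA of irradiated mice was extracted with TRIzol and sequenced as 8 libraries (4 wild type, 4 miR-29ab1-/-), per the labels. Per the submitters' processing notes, the tools were HISAT2 and DESeq2, each listed with neither role nor version. No label or header states the counting program, genome build, annotation or strandedness. The authors deposited counts for each gene in every library, which were read as estimated counts because 8.04 to 9.18 percent of these values were not whole (tolerance 0.001). They were rounded to whole numbers. A second deposited set, with no unit in its header, was taken as FPKM, since its ratio to the counts followed the library totals to within 0.81 percent. Totals were 10719668 to 16231099 counts in wild type and 9481201 to 14612798 in the knockout. Of the gene numbers, 17522 were found in the RefSeq table.

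Counts were filtered with edgeR's filterByExpr, scaled by TMM and tested with edgeR 4.0.16 (R 4.3.3) by the quasi-likelihood test on all 8 libraries, with Benjamini-Hochberg adjustment over 12908 genes and a threshold of 0.05. DESeq2 1.42.0 was an alternative. The fit was checked on simulated counts. CPM used TMM-scaled totals. Coding sequences were aligned with Biopython 1.88. Exact tests ran over all 70 assignments of the libraries in Python 3.11.15, and scipy 1.17.1 gave their adjustment and Spearman's rho.

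Same-numbered libraries of the 2 genotypes deviated together from their group means (r 0.29 to 0.52, against -0.45 to 0.41 for different numbers). Of 8 libraries, 7 were closest to the one that shares their number. The number was therefore taken to pair libraries in 1 alternative, the replicate block. The main fit, its p-values and the exact tests of member pairs did not use this pairing. The labels do not say what the shared number marks.

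The 9 members and the gene lists were chosen with earlier results of these data known. The text names all alpha-defensins, up to 3 genes of smallest p in each gene list, Lyz1, Mmp7, Sox9 and the 6 genes most like the members' sum. Some further genes of the lists, among them Paneth cell genes that did not pass, are named to show limits. The sequence groups, the pair tests and the ratios to Lyz1 and Mmp7 were added after the values were seen. Alternatives were other scaling, other filters, DESeq2, a replicate block, replicates 1 to 3 alone and each library left out.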

Additional observations from a re-analysis of the deposited data

Results flagged for a closer look

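Wild-type replicate 3 stood apart from the other wild-type libraries in 2 of 24 groups of 4 values examined, and chance marks about 1 in 20 such groups. For Defa17 it stood at 1411 CPM, with the nearest library at 1943 CPM, a gap of 0.912 of the group's whole range, above Dixon's 95% limit for 4 values. For the summed level of the 9 alpha-defensins it stood at 7555 CPM, with the nearest library at 10507 CPM, a gap of 0.944 of the range.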

How the results depend on the processing

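Under the alternatives, all 9 log2 fold changes stayed above 0. With the replicate block, which rests on the pairing of same-numbered libraries, 5 of the 9 members passed (54.2 percent of all genes), Defa5 being added, and no other member's call changed. The number of members called was 1 with replicates 1 to 3 alone (36.4 percent of all genes) and ran from 1 to 9 when each library was left out in turn (38.2 to 48.8 percent of all genes). The lowest count came without knockout replicate 1 or wild-type replicate 3 and the highest without knockout replicate 3. DESeq2 and the filter at a mean of 50 counts gave 5, and the other scaling and filter settings gave 4. Defa26 passed under all 16 alternatives (adjusted p 0.000849 to 0.0486), Defa21 under 12, Defa20 under 11, Defa22 under 10 and Defa5 under 4, and Defa3, Defa17, Defa23 and Defa24 under 1 each. Total-count scaling moved the median of all genes to -0.23 and the split of calls to 2090 higher and 4023 lower, against 3129 and 2976. The log2 ratio of the members' sum between genotypes, 0.87, ran from 0.43 to 1.10 with 1 library left out and was 0.56 under total-count scaling. The other Paneth cell genes are not all specific to Paneth cells. The log2 ratio of the members' sum to them, 0.17, ran from -0.0379 to 0.29 with 1 library left out, at -0.0379 without knockout replicate 2. Reg3g and Reg3b, which are among these other genes, were lowest in knockout replicate 2. The cause of these shifts was not tested. Depth limits Defa25, and shared reads limit the values of single members with near copies.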

Other observations

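Gm7849 and Gm7861 have identical coding sequences, and their counts divided unevenly. Gm7861 stood at 7.80 CPM in wild-type replicate 2 and at 106, 182 and 139 CPM in wild-type replicates 1, 3 and 4, while Gm7849 stood at 1654, 1780, 1312 and 1403 CPM in replicates 1 to 4. Defa30 is next to Defa22 in the order of the 28 genes on the chromosome. It stood at 952, 896, 656 and 1661 CPM in wild type and at 915, 2004, 593 and 1241 CPM in the knockout. Its log2 fold change was 0.19 (SE 0.39, adjusted p = 0.714 by edgeR's quasi-likelihood test).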
